A study of Homo sapiens with 3 samples.

Results

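The window on the short arm of chromosome 6 from 25.7 to 33.4 Mb (hg19) was examined for binding of HA-PSF-TFE3. It was chosen by position alone, as every peak summit on chromosome 6 whose 0-based start lay between these limits. It held 221 of the 44983 summits of replicate 8 and 117 of the 28084 of replicate 9. The mean was 169 ± 73.5 (SD, n = 2 libraries). The window was divided into 5 sub-windows, named for the genes known to lie there. They were 25.7 to 28.0 Mb (histone and tRNA genes), 28.0 to 29.6 Mb (tRNA, zinc finger and olfactory receptor genes), 29.6 to 31.3 Mb (class I), 31.3 to 32.2 Mb (class III) and 32.2 to 33.4 Mb (class II). These limits are round numbers and need not follow the borders of the gene classes. The comparison was with the remaining 2474 and 1494 summits of the chromosome.

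Both libraries came from chromatin immunoprecipitation and sequencing (ChIP-seq), which maps the DNA that a protein occupies. The cells were HK-2, a line derived from the epithelium of the human proximal tubule. They carried a doxycycline-inducible, HA-tagged PSF-TFE3 (also called SFPQ-TFE3), and were given doxycycline at 0.2 µg/ml for 24 h. PSF-TFE3 joins the RNA-binding protein SFPQ to TFE3, a MiT/TFE transcription factor. The study describes independent clones of this line, so that clone and library cannot be told apart. The 1 group held 2 ChIP libraries, labelled 8 and 9, and 1 input DNA library was the authors' control for peak calling. No library without doxycycline or without the fusion was analysed here, so no test between conditions was possible. The series title and sample labels name PSF-TFE3 whereas its design text names PRCC-TFE3. The labels were followed, and the identity of the fusion was not tested.

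The largest cluster of replication-dependent histone genes in the human genome lies at the start of this window, among one of the largest collections of tRNA genes. Zinc finger and olfactory receptor genes follow, and then the major histocompatibility complex (MHC). Its class I genes encode proteins that show peptides from inside the cell to cytotoxic T cells, and those of its class II genes show peptides taken up from outside to helper T cells. The class III genes between them encode complement components, tumour necrosis factor and others, among them the lysosomal sialidase NEU1. MiT/TFE factors bind E-box motifs and are best known for driving lysosomal and autophagy genes. Histone, olfactory receptor and MHC genes have closely similar copies. The study counts uniquely mapped reads and names filtering of duplicate alignments and of mapped reads, without saying whether reads that fit several places were removed before peak calling.

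A summit is the single base of highest enrichment within a peak, and its score is −log10 of the q-value that the authors' caller gave the peak over the input. A higher score therefore means a smaller q-value, and scores are not normalised between libraries. The lists give no read depth, the read totals that the study states were not used here, and a missing summit means only that no peak passed the threshold in that library. Summits were called shared where the other library had one within 200 bp, and far where it had none within 5 kb. The lists are on a build other than hg38, of which no sequence or annotation was at hand. Summits are therefore given by position, counted from 1, and none was assigned to a gene, so that the names of the sub-windows were not checked against the summits.

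Summits were denser in the window than on the rest of the chromosome in both libraries. Replicate 8 had 28.7 summits per Mb (exact Poisson 95% interval 25.04 to 32.75) against 15.2 on the rest of chromosome 6. Replicate 9 had 15.2 per Mb (12.6 to 18.2) against 9.17. The density ratio was 1.89 (exact conditional 95% interval 1.64 to 2.17) in replicate 8 and 1.66 (1.36 to 2.002) in replicate 9, a mean of 1.77 ± 0.165 (SD, n = 2). The rest of the chromosome includes a stretch of 4.04 Mb without summits, from position 58779004 to 62823961. With that stretch left out the mean ratio was 1.73. All intervals here cover counting error only, and summits of a list are clustered rather than independent. When the rest of the chromosome was laid out in 20 stretches of the same 7.7 Mb, none held more replicate 8 summits than the window (highest 205), whereas 3 held more replicate 9 summits (highest 134).

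**Figure D1:**
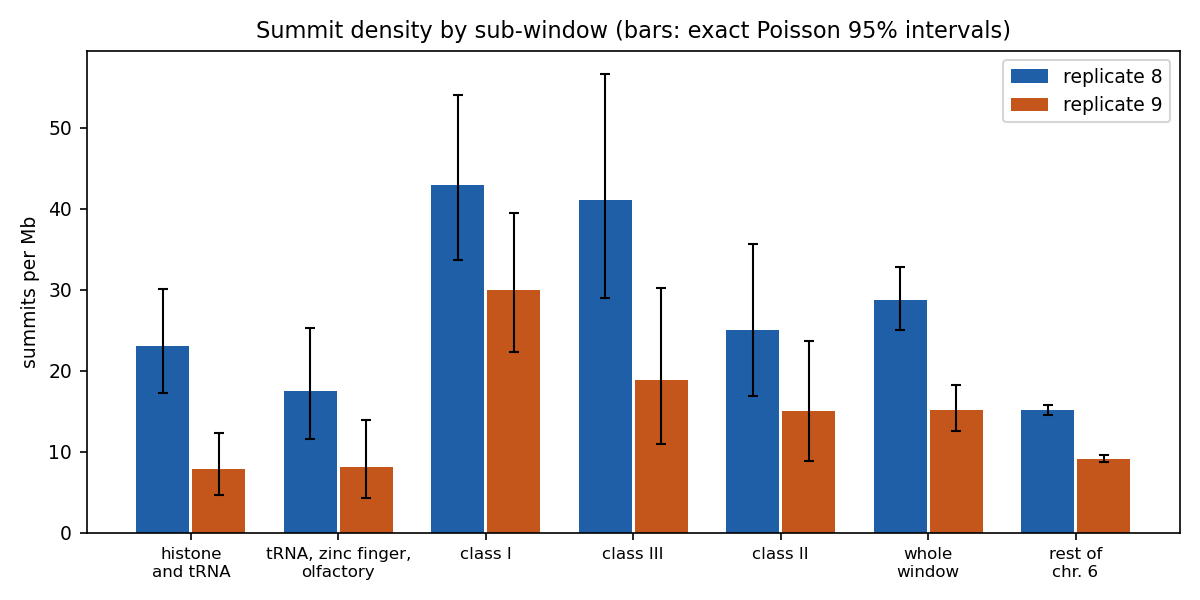
Summits per Mb in each sub-window, in the whole window and on the rest of chromosome 6, for replicate 8 (blue) and replicate 9 (orange), with exact Poisson 95% intervals. Class I was the densest sub-window in both libraries, at 42.9 and 30 summits per Mb, against 15.2 and 9.17 on the rest of the chromosome.

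The excess was not even along the window. Class I held 73 replicate 8 and 51 replicate 9 summits in 1.7 Mb, which was 2.83 times (2.21 to 3.57) and 3.27 times (2.43 to 4.33) the density of the rest of the chromosome. In class III the ratios were 2.71 (1.90 to 3.74) and 2.06 (1.197 to 3.31), from 37 and 17 summits. Class II, with 30 and 18 summits, had ratios of 1.65 (1.11 to 2.36) and 1.64 (0.97 to 2.60). These 3 MHC sub-windows stood above the rest of the chromosome in both libraries, although the interval of class II in replicate 9 included equality. Dense stretches were not confined to the MHC. The chromosome outside the histone and tRNA sub-window was laid out in 73 stretches of 2.3 Mb. Their median was 32 replicate 8 and 19 replicate 9 summits. The stretch from 41.8 Mb held 110 and 61, and that from 34.9 Mb held 95 and 63. Class I, of 1.7 Mb, was not compared with stretches of its own length.

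The libraries parted in the first sub-window, that of the histone and tRNA genes. It held 53 replicate 8 summits but 18 replicate 9 summits, with density ratios of 1.52 (1.13 to 1.99) and 0.85 (0.50 to 1.35). The tRNA, zinc finger and olfactory sub-window was near the chromosome's level in both, with 28 and 13 summits and ratios of 1.15 (0.76 to 1.67) and 0.89 (0.47 to 1.52). Expressed as a share of the summits of both lists together, replicate 8 gave 74.6% of those in the histone and tRNA sub-window against 62.3% on the rest of the chromosome, a difference of 12.3 points (Newcombe 95% interval 0.998 to 21.1). For the other sub-windows this difference lay between −3.48 and 6.17 points, and each interval included 0. Among summits with a score of at least 10 the histone and tRNA sub-window had 22 and 7, a difference of 17.7 points (−0.43 to 29.8).

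**Figure D2:**
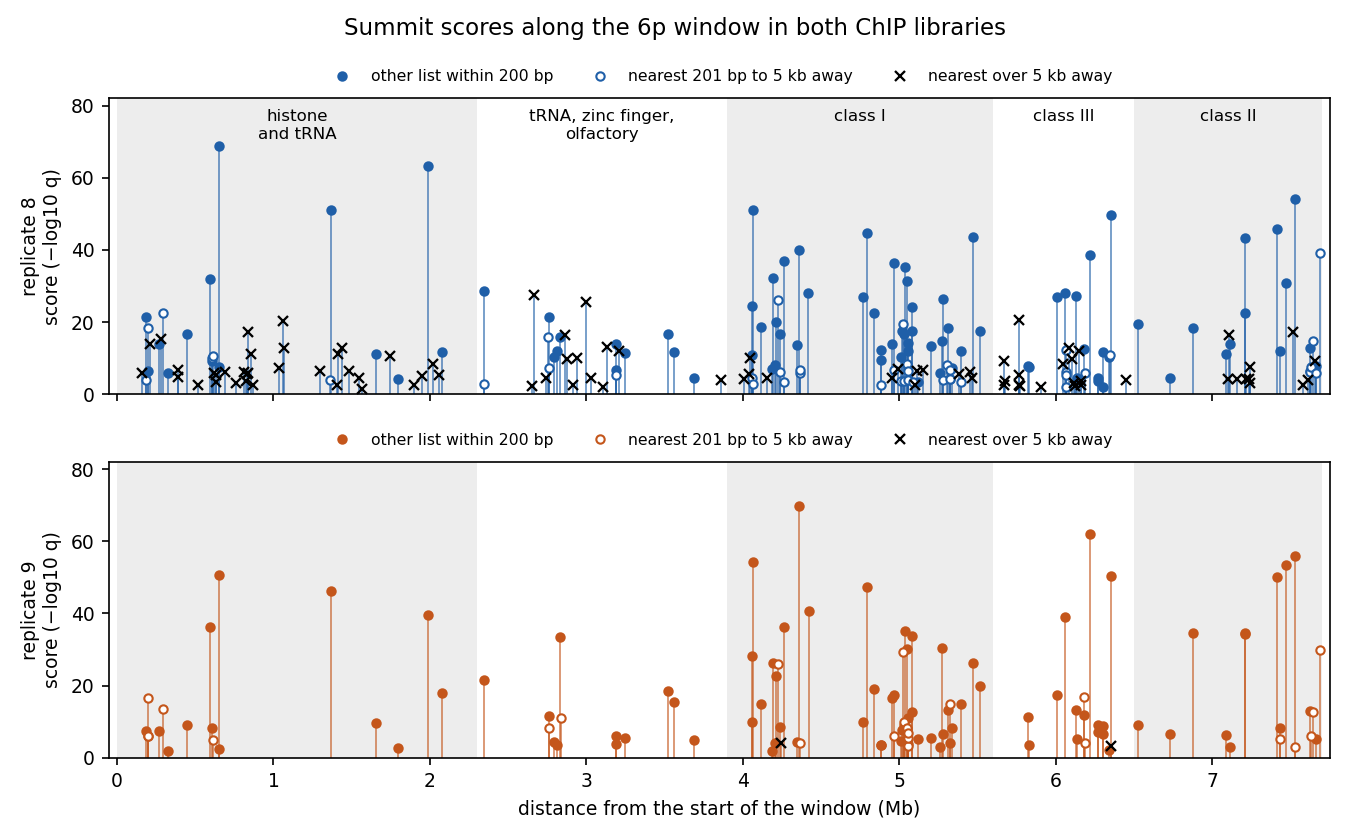
Score (−log10 q) of every summit against its distance from the start of the window (Mb), for replicate 8 (top) and replicate 9 (bottom). Filled circles were matched in the other library within 200 bp, open circles had the nearest summit up to 5 kb away, and crosses had none within 5 kb. Crosses number 86 in replicate 8, of which 33 lie in the histone and tRNA sub-window, and 2 in replicate 9.

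Recurrence of sites was examined next, by counting summits with a partner within 200 bp. In replicate 8, 92 of 221 summits were shared (41.6%, Wilson 95% interval 35.3 to 48.2), against 47.9% over the whole list and 47.9% on the rest of the chromosome, a difference of −6.27 points (−12.9 to 0.61). In replicate 9, 92 of 117 were shared (78.6%, 70.4 to 85.1), against 76.6% over the whole list and 79.4% on the rest of the chromosome, a difference of −0.75 points (−9.26 to 6.04). The interval of the difference thus included 0 in both libraries. It depended on the setting. Within 50 bp the difference was 3.18 points (−2.52 to 9.61) in replicate 8 and 11.6 points (2.29 to 20.8) in replicate 9. With only scores of at least 10 in both lists it was −14.5 points (−24.3 to −4.41) in replicate 8, and with equal numbers of summits in both lists −10.2 points (−18.8 to −1.94).

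Far summits, in contrast, were nearly all from replicate 8. Of its 221 summits, 86 had no replicate 9 summit within 5 kb (38.9%, 32.7 to 45.5), against 28.2% over the whole list and 29.95% on the rest of the chromosome, a difference of 8.96 points (2.51 to 15.8). In replicate 9 only 2 of 117 were far (1.71%, 0.47 to 6.02), against 4.95% over the whole list and 4.62% on the rest of the chromosome. These 2 were at position 29944584 in class I, with a score of 4.12, and at position 32049279 in class III, with a score of 3.20. The same imbalance held on the rest of the chromosome, with 741 far summits in replicate 8 and 69 in replicate 9.

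The histone and tRNA sub-window carried most of this difference. There, 14 of 53 replicate 8 summits were shared (26.4%, 16.4 to 39.6), a difference from the rest of the chromosome of −21.5 points (−31.7 to −8.17). The far summits numbered 33 of 53 (62.3%, 48.8 to 74.1), which was 32.3 points more (18.7 to 44.2). The far share was also above that of the rest in class III, at 17 of 37 (45.9%, difference 15.99 points, 0.97 to 31.8), and below it in class I, at 12 of 73 (16.4%, difference −13.5 points, −20.5 to −3.23). It was 13 of 28 (46.4%, difference 16.5 points, −0.52 to 34.3) in the tRNA, zinc finger and olfactory sub-window and 11 of 30 (36.7%, difference 6.72 points, −8.19 to 24.6) in class II. How often a replicate 8 summit is far also depends on how many replicate 9 summits lie nearby, which was not adjusted for. In order along the chromosome, replicate 9 had 7.8, 8.1, 30, 18.9 and 15 summits per Mb in the sub-windows, and 9.17 on the rest. Shares of shared and far summits, of scores of at least 10 and of same-list neighbours within 10 kb were compared with the rest. Of these 40 differences between a sub-window and the rest, computed without adjustment, 9 had intervals that left out 0. Densities, shares of both lists together and comparisons within ranges of score are not in this count.

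The far share was then compared within ranges of score, since far replicate 8 summits of the window had low scores. Their median was 5.55, against 8.43 for all replicate 8 summits of the window, and 5.91 in the histone and tRNA sub-window. In the tRNA, zinc finger and olfactory sub-window it was higher, 9.83, against 10.9 for all replicate 8 summits there. Between scores of 10 and 20, 8 of 15 replicate 8 summits in the histone and tRNA sub-window were far (53.3%, 30.1 to 75.2), against 84 of 574 on the rest of the chromosome (14.6%, 11.98 to 17.8). At scores of at least 10, the sub-window had 9 far summits of 22 (40.9%) and the rest had 87 of 1077 (8.08%), a difference of 32.8 points (15.1 to 53.2). The tRNA, zinc finger and olfactory sub-window had 6 of 16 (37.5%, difference 29.4 points, 10.3 to 53.3). In class I, 1 of 36 such summits was far (2.78%) and 33 of 36 were shared (91.7%, against 81.9% on the rest, a difference of 9.77 points, −3.90 to 15.7). Above a score of 20 the numbers were small, with 1 of 7 far in the histone and tRNA sub-window and 3 of 503 on the rest of the chromosome.

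**Figure D3:**
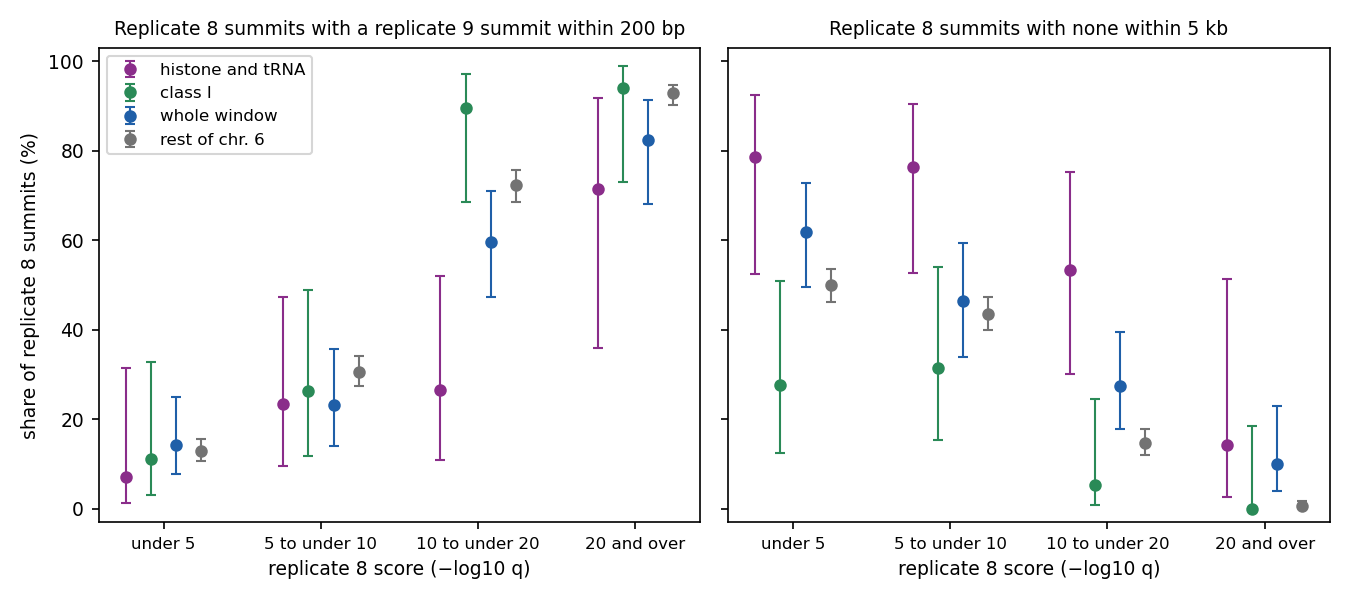
Share of replicate 8 summits (%) that had a replicate 9 summit within 200 bp (left) or none within 5 kb (right), by replicate 8 score, with Wilson 95% intervals. Points stand for the histone and tRNA sub-window, class I, the whole window and the rest of chromosome 6. In the range from 10 to under 20, the far share was 53.3% in the histone and tRNA sub-window, 5.26% in class I and 14.6% on the rest of the chromosome.

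Many far summits of the histone and tRNA sub-window stood next to each other. The longest stretch of the window without a replicate 9 summit ran from position 26353719 to 27064804, or 711 kb. It held 14 replicate 8 summits with scores from 2.68 to 20.3, of which 4 reached 10. Of these, 13 in a row, from position 26389588 to 26999353, were far, lying 35.9 to 330 kb from the nearest replicate 9 summit. The strongest was at position 26758301, with a score of 20.3 (rank 7701 in its list), and the next at position 26538074, with a score of 17.3. A shared pair closed the stretch at each end. The stretch was picked for its lack of replicate 9 summits, so replicate 8 summits over 5 kb from its ends were far by that choice. The run of 13 is therefore not a result separate from the stretch. With the stretch left out, 20 of 39 replicate 8 summits of the sub-window were far (51.3%, difference 21.3 points, 6.14 to 36.3).

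Runs of this kind were found elsewhere in the window as well. The next longest were 8 far replicate 8 summits in a row from position 28565170 to 28831502 in the tRNA, zinc finger and olfactory sub-window, with scores from 2.09 to 25.6, and 7 from position 31369234 to 31468690 at the start of class III, with scores from 2.42 to 20.6. In the window 3 of 33 runs, single far summits included, had 7 or more summits and the longest had 13. On the rest of the chromosome 5 of 378 runs had 7 or more and the longest had 8. The length of a run also depends on how many replicate 9 summits lie nearby, which was not adjusted for. In replicate 9 each far summit of the window stood alone. The chromosome outside the histone and tRNA sub-window was also laid out in 73 stretches of 2.3 Mb, the length of that sub-window. The sub-window's far share of 62.3% was exceeded in 1 of them, which held 3 replicate 8 summits, and the next highest was 57.1%, from 4 of 7 summits. Its ratio of replicate 8 to replicate 9 summits, 2.94, was likewise exceeded in 1 of the 72 stretches with a replicate 9 summit, that same stretch of 3 replicate 8 and 1 replicate 9 summits.

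The longest stretch without a replicate 8 summit was shorter and held fewer summits of the other list. Replicate 8 had 221 summits in the window and replicate 9 had 117. Such stretches also depend on the size of the list, which was not adjusted for. The longest one ran from position 30118847 to 30464545 in class I, or 346 kb, and both of its ends were shared sites. The 1 replicate 9 summit inside it, with a score of 40.6, lay 188 bp from the replicate 8 summit that formed the edge and was its partner. The other long stretches without replicate 8 summits in the window, of 304 and 272 kb, likewise held 1 replicate 9 summit each, with scores of 21.6 and 17.9.

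Of the 20 replicate 8 summits of the window that scored 30 or more, 19 were shared (95%), against 92.6% of such summits over the whole list and 96.3% on the rest of the chromosome. Of the 23 such replicate 9 summits 23 were shared, against 89.3% and 91.6%. At a minimum score of 15 the window was lower in replicate 8, with 45 of 60 shared (75%) against 90.7% on the rest of the chromosome, a difference of −15.7 points (−28.1 to −6.21). The remaining replicate 8 summit, at position 33386156 in class II, had a score of 39.2 and a replicate 9 summit 297 bp away with a score of 29.96. Scores of 10 or more were given to 102 of 221 summits in replicate 8 (46.2%, against 41.7% over the whole list) and to 57 of 117 in replicate 9 (48.7%, against 51.6%). The median score was 8.43 in replicate 8, as on the rest of the chromosome (8.43), and 9.54 in replicate 9, against 10.5 on the rest. The difference of medians was 0 and −0.93, a mean of −0.46 ± 0.66 (SD, n = 2), which was less than the spread between libraries.

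The highest score of the window in replicate 8 was at position 26351997, in the histone and tRNA sub-window. It scored 68.8 (rank 34 of its list) and had its partner 14 bp away with a score of 50.6 (rank 1539). The pair at position 27064818 in replicate 8 was again 14 bp apart, with scores of 51.0 and 46.3 in replicates 8 and 9. The pair at position 27686958 was 44 bp apart, with scores of 63.2 and 39.5. These 3 pairs, the best of the sub-window by the worse of the ranks in either list, all had the better rank in replicate 8. The sub-window of most unmatched summits also held the strongest replicate 8 site of the window. Of its 14 pairs, 4 had both ranks within the top 5000 (28.6%, against 14.4% of all pairs and 16.8% on the rest of the chromosome). This share was not particular to the sub-window. It was 4 of 13 in class II (30.8%), 3 of 14 in class III (21.4%) and 7 of 40 in class I (17.5%).

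The tRNA, zinc finger and olfactory sub-window had 11 pairs, of which 0 had both ranks within the top 5000, against 14.4% of all pairs. Its best pair, at position 28047819, had scores of 28.7 and 21.6 and a distance of 30 bp. Among the pairs named, that at position 28533218 differed most in rank when ranks were taken among the paired summits of each library. It scored 15.9 in replicate 8 (rank 11038 of its list) and 33.4 in replicate 9 (rank 3758). The highest-scoring far summit of the window was also in this sub-window, at position 28364585, with a score of 27.5 in replicate 8 and no replicate 9 summit within 93.02 kb.

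In class I the best pair was at position 30059778. It scored 40.1 in replicate 8 and 69.8 in replicate 9, the latter being the highest replicate 9 score of the window (rank 474), with a distance of 128 bp. The pairs at positions 29765202 and 30495924 scored 51.0 and 54.2, and 44.6 and 47.2, at distances of 36 and 23 bp. The strongest far replicate 8 summit of class I, at position 29745322, scored 10.02 and lay 11.6 kb from the nearest replicate 9 summit. The 12 far replicate 8 summits of class I did not exceed this score. The 3 pairs were named for their ranks and do not stand for the sub-window. Of its 40 pairs, 7 had both ranks within the top 5000 (17.5%), near the 16.8% on the rest of the chromosome.

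Class III and class II showed similar pairs. In class III the pair at position 31916769 scored 38.7 in replicate 8 and 62.1 in replicate 9, that at position 32055005 scored 49.6 and 50.3, and that at position 31760706 scored 28.1 and 38.9. The only pair of the window on the same base was at position 31830593 in class III, with scores of 27.3 and 13.4. The strongest far replicate 8 summit of class III was at position 31466034, with a score of 20.6 and the nearest replicate 9 summit 57.04 kb away. In class II the pair at position 33228670 was 1 bp apart and scored 54.0 and 56.0, and those at positions 33112360 and 33173462 scored 45.9 and 49.99, and 30.9 and 53.4. A far replicate 8 summit at position 33216822, 11.8 kb from the nearest replicate 9 summit, scored 17.3.

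Summits of one list lay close together in class I and class III, the densest sub-windows, more often than on the rest of the chromosome. Close neighbours become more frequent with density alone, which was not adjusted for, so this share is not separate from the density ratios. In replicate 8, 138 of the window's 221 summits had another replicate 8 summit within 10 kb (62.4%, against 62.8% over the whole list and 58.3% on the rest of the chromosome). In replicate 9, 70 of 117 had one (59.8%, against 50.4% over the whole list and 46.6% on the rest), a difference from the rest of 13.2 points (3.84 to 22.0). In class I the share was 78.1% in replicate 8 and 68.6% in replicate 9, which were 19.8 points (8.87 to 28.0) and 22.0 points (8.15 to 33.4) above the rest. In class III it was 78.4% and 82.4%, or 20.1 points (4.40 to 30.5) and 35.8 points (12.2 to 47.5) above. Class II, at 17 of 30 (56.7%) and 8 of 18 (44.4%), was near the rest of the chromosome. The tRNA, zinc finger and olfactory sub-window went the other way in replicate 8, with 10 of 28 (35.7%), a difference of −22.6 points (−37.7 to −4.01).

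The groups with most summits of replicate 9, and those of class I with most summits of replicate 8, lay side by side in a single stretch. Between positions 30712161 and 30757022 in class I, or 44.9 kb, each list had 13 summits, 7 of them shared, and no summit was more than 1038 bp from one of the other list. The stretch joined 2 groups of summits under 10 kb apart. The first had 7 summits over 25.2 kb in replicate 8 and 6 over 24.8 kb in replicate 9, and the second had 6 over 7.43 kb and 7 over 6.37 kb. Its strongest site, at position 30737337 in replicate 8 and 5 bp further in replicate 9, scored 35.4 and 35.0, and the next, at position 30749589 and 99 bp further, scored 31.4 and 30.2. At another site the summits lay 210 bp apart, just outside the limit for sharing, with 19.4 in replicate 8 at position 30720509 and 29.2 in replicate 9. The stretch gave 17.8% of the replicate 8 and 25.5% of the replicate 9 summits of class I. Without it, class I still had 2.39 times (1.82 to 3.08) and 2.505 times (1.77 to 3.45) the density of the rest of the chromosome.

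**Figure D4:**
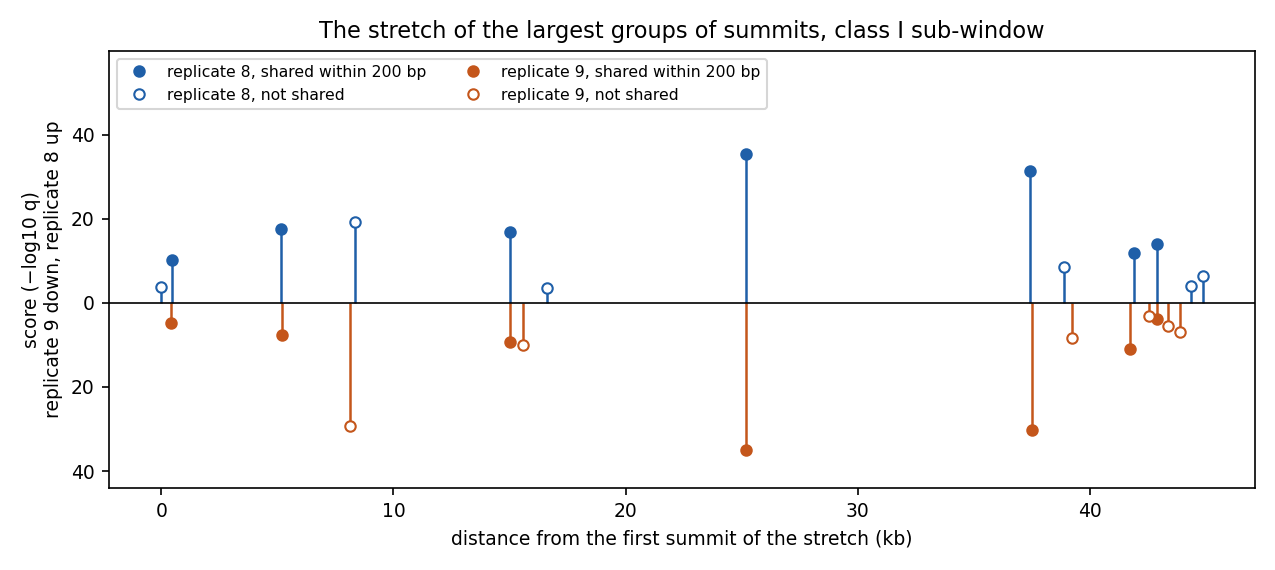
Scores (−log10 q) of the 13 summits of each library in the stretch of the largest class I groups, against distance from its first summit (kb), with replicate 8 drawn upwards and replicate 9 downwards. Filled circles were matched in the other library within 200 bp and open circles were not. The 2 strongest shared sites have nearly equal scores in both libraries, 35.4 and 35.0, and 31.4 and 30.2.

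Replicate 8 also had a group of 7 summits in the histone and tRNA sub-window, from position 26296533 to 26334111. Its first summit, with a score of 31.9, was paired 13 bp away with a replicate 9 summit of 36.1, and the one at position 26310223 was paired 1 bp away, with scores of 9.18 and 8.35. The last 3 summits of the group, with scores of 3.28 to 5.87, were far from the replicate 9 list. Single summits were as frequent in both lists, however, with 83 of 130 groups in replicate 8 (63.8%) and 47 of 75 in replicate 9 (62.7%) made of 1 summit.

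The place and order of paired summits were compared with those of pairs elsewhere. Pairs lie within 200 bp by definition, so their closeness is of use only in that comparison. The window gave 92 pairs of mutually nearest summits within 200 bp. Spearman's rho of the scores was 0.814, against 0.757 across the 1184 pairs of the rest of the chromosome. Pairs are not independent replicates, and both values come from the same 2 libraries. By sub-window rho was 0.865 (14 pairs), 0.709 (11), 0.805 (40), 0.798 (14) and 0.819 (13), in the order along the chromosome. The median distance between paired summits was 32.5 bp, against 52 bp over all pairs and 50 bp on the rest of the chromosome. Within 50 bp lay 60 of 92 pairs (65.2%), against 48.8% and 50.1%. Ranks were also taken among the 21518 paired summits of each library, rather than over its whole list. In 57 of the 92 pairs (62.0%) the replicate 8 summit had the better of these ranks. The same held in 49.4% of all pairs and in 55.3% of those on the rest of the chromosome.

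**Figure D5:**
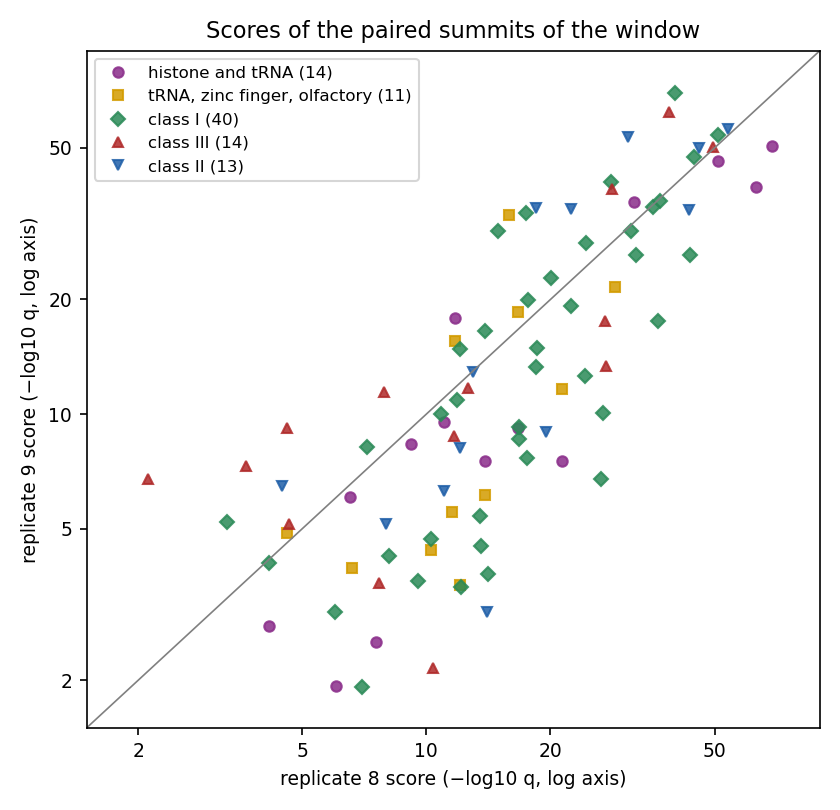
Replicate 9 score against replicate 8 score (−log10 q, log axes) for the 92 paired summits of the window, by sub-window, with the number of pairs in brackets and a line at equal scores. The replicate 9 score was higher in 33 of the 92 pairs, or 35.9%, against 41.6% of pairs on the rest of the chromosome and 46.5% of all pairs.

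The limits of the window passed through sparse stretches. The last replicate 8 summit before it was at position 25477504, with a score of 5.397, and the first inside at position 25858575, with a score of 5.91. At the other end the last inside was at position 33386156 and the first beyond at position 33530017, with scores of 39.2 and 17.02. The replicate 9 summits next to the limits were at positions 25458987 and 25884351, and at 33385859 and 33530060.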

How the data were processed

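The deposited files were 1 list of 1 bp peak summits per ChIP library. Per the labels, the authors called peaks with MACS2 on hg19, in each library separately against the input. The deposited score is −log10 of the q-value. The study's methods also name hg38, and state a q-value cutoff of 0.05 in one place and a p-value cutoff in another. In replicates 8 and 9, 364 and 262 summits lay beyond hg38 chromosome ends, 2 and 1 of them on chromosome 6. Gene assignment, start-site and motif shares and gene lists were therefore not run.

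Sub-windows were compared with the rest of chromosome 6, taken as the 163 Mb spanned by its other summits, with Wilson, Newcombe and exact 95% intervals and no p-values. Named sites were, in each sub-window, the 3 pairs with the best worse rank and the highest-scoring far summit, the largest groups of summits under 10 kb apart, and the longest summit-free stretches. The window and these choices were made with earlier results of these data known. Runs of far summits and the same-base pair were singled out after their values were seen. Distance functions were tested on simulated lists. Intervals used scipy 1.17.1 and figures matplotlib 3.10.9, under Python 3.11.15 with pandas 2.3.3 and numpy 2.4.6.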

Additional observations from a re-analysis of the deposited data

How the results depend on the processing

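Of 43 values recomputed under other settings, 39 stayed within the interval or spread of the value reported and 4 did not. The 39 include values with 1 library left out, which cannot fall outside a spread taken from the same 2 libraries. The mean number of summits in the window fell to 79.5 with a minimum score of 10. Without replicate 8 or 9 it ranged from 117 to 221, the density ratio from 1.66 to 1.89, and the difference of median scores from −0.93 to 0. The difference in shared share between the window and the rest of chromosome 6 depended on the matching distance. Within 50 bp it turned from −6.27 to 3.18 points in replicate 8 and from −0.75 to 11.6 points in replicate 9, and with a minimum score of 10 in both lists it was −14.5 points in replicate 8. The far share of the histone and tRNA sub-window stayed 21.3 to 33.0 points above the rest under alternatives chosen after seeing the data. No paired analysis was possible because there was 1 group. Leaving out a replicate leaves no second list to match, so shared and far shares had no such value. Alternatives for start sites and motifs were not run, for want of the build's genome. The lists hold no read depth, and the read totals that the study states were not used here, so the part of depth in missing summits was not tested.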
